A study of Tachycineta bicolor and Sialia sialis and Hirundo rustica with 121 samples.

Results

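The genes described here are the receptors, adaptors, kinases, transcription factors and inhibitors through which cells sense interferons, interleukins and tumour necrosis factor, taken from a brain RNA sequencing survey of songbirds. They were chosen by gene symbol: interferon regulatory factors (IRF), signal transducers and activators of transcription (STAT), NF-kB subunits and inhibitors, interferon, interleukin and tumour necrosis factor receptors (IFNAR, IFNGR, IL-R, TNFRSF), TRAF adaptors, Janus kinases (JAK) and suppressors of cytokine signalling (SOCS). The symbols took 49 of 10672 genes in the table. By role these were 2 interferon receptors, 8 interleukin receptors, 6 TNF receptors, 7 TRAF adaptors, 1 Janus kinase, 5 STATs, 5 SOCS genes, 4 interferon regulatory factors, 7 genes of the NF-kB group and 4 genes that share only the symbol pattern. Those 4 are IL1RAPL1 and IL1RAPL2, which are adhesion proteins of synapses, and IRF2BP2 and IRF2BPL, which are nuclear regulators named for binding to IRF2. Toll-like receptors are not analysed here, and neither are IRF8, JAK2 and SOCS3.

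Wild adult birds gave RNA from the ventromedial telencephalon, which lies in the forebrain, and were caught while territories and nests were being set up and before eggs were laid. Each of 5 families gave 1 species that nests only in cavities (obligate) and 1 partner species with another habit. The pairs were Tree Swallow (13 birds) and Barn Swallow in Hirundinidae, Prothonotary Warbler and Yellow Warbler in Parulidae, Eurasian Tree Sparrow and House Sparrow in Passeridae, House Wren and Carolina Wren in Troglodytidae, and Eastern Bluebird and American Robin in Turdidae, with 12 birds in each species other than Tree Swallow. Nests of Barn Swallow, Yellow Warbler and American Robin are open cups, whereas House Sparrow and Carolina Wren use cavities facultatively. Each species had 6 males and 6 females, except Tree Swallow with 6 males and 7 females. The labels name no treatment, and every group differs from its partner by species as well as by nesting habit, and within 1 family these cannot be told apart.

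In the textbook scheme, type I interferon binds IFNAR1 and its partner chain, and interferon gamma binds IFNGR1. Both receptors signal through Janus kinases, which phosphorylate STAT proteins that then switch on genes in the nucleus; SOCS proteins are made in response and shut the receptor complex down. TNF receptors and the interleukin 1 and 17 receptors signal instead through TRAF adaptors, which free NF-kB from its inhibitors. In the brain, microglia and endothelial cells are known users of these pathways, and STAT3 and NF-kB are also active in astrocytes and neurons.

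The libraries held 4526413 to 7549296 counts each. A level is given in CPM, a gene's share of the TMM-scaled library, and as they are not divided by gene length they are compared between birds and not between genes. Where 3 values follow each other they are the lowest, the median and the highest bird of a species. A log2 fold change is the obligate nester over its partner with its standard error, from edgeR's quasi-likelihood test, and a gene is called when its p, adjusted over all genes tested in that family, is under 0.05. The deposited table gives counts of all 10 species for 1 set of gene symbols, and how well the reads of each species match the sequences behind them was not tested. The tissue was sampled in bulk, so fewer cells of a type and less RNA per cell cannot be told apart. House Sparrow female 3, Barn Swallow females 3 and 4 and male 12 of the Eastern Bluebirds stood apart from the other birds of their species, and Carolina Wren female 1 and male 3 went against their sex labels. Eastern Bluebird male 12 had 0 counts for 11 of the 49 genes, the lowest value of its species for 20 and the highest for 12. From fits of both sexes, results that change without these 6 libraries are given both ways. Fits of 1 sex alone took sex from the labels, kept these libraries and were not rerun without them.

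All 49 genes passed the filter on low counts in every family, and 46 were called in at least 1 family, as were 93.6% of all genes tested in every family. In Tree Swallows 12 genes were higher and 18 lower than in Barn Swallows, where 25.8% of all genes tested were higher and 28.5% lower. In Prothonotary Warblers 17 were higher and 10 lower than in Yellow Warblers, against 28.1% and 27.3% of all genes. In Eurasian Tree Sparrows 15 were higher and 8 lower than in House Sparrows, with 24.2% and 24.8% of all genes called. In House Wrens 17 were higher and 9 lower than in Carolina Wrens, with 30.7% and 26.2% of all genes called. In Eastern Bluebirds 9 were higher and 21 lower than in American Robins, against 28.5% and 27.7% of all genes. With both directions together, 136 of 245 differences were called (55.5%), near the 54.4% over all genes. The directions were less even than over all genes, with more lower in Hirundinidae and Turdidae and more higher in Parulidae, Passeridae and Troglodytidae. This split was not tested. The median log2 fold change of the 49 was -0.17 in Hirundinidae, 0.07 in Parulidae, 0.08 in Passeridae, 0.11 in Troglodytidae and -0.22 in Turdidae. The median over all genes lay between -0.02 and 0.02. The split in Parulidae depended on the scaling. With library size alone, which moved the median of all genes to -0.17, 12 of the 49 were higher and 17 lower. In Passeridae the same scaling moved the median of all genes to -0.20 and gave 12 higher and 9 lower. Among the calls that did not pass under it were those of IL1RAPL1, STAT6, TNFRSF19 and TRAF1 in Parulidae and IL17RA, NFKB1 and TNFRSF19 in Passeridae. The birds of obligate nester and partner did not overlap at all for 7 of the 49 genes in Hirundinidae, against 14.7% of all genes tested. They did not overlap for 12 in Parulidae (16.6% of all genes), 8 in Passeridae (13.5%), 5 in Troglodytidae (17.6%) and 6 in Turdidae (14.6%).

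The direction of a difference changed from family to family for most genes. Of the 49, 32 were called higher in 1 family and lower in another, as were 58.8% of all genes. IL2RB, STAT3, TNFRSF21 and TRAF7 were called in all 5 families, as were 9.62% of all genes, and none of the 49 was called in a single direction in all 5, as were 0.525% of all genes. The difference between obligate nester and partner depended on family for 42 of the 49 genes (edgeR, obligate by family interaction over all birds), against 89.5% of all genes. The 7 genes for which that test did not pass were IL1R1, IRF2BP2, NFKBIB, NFKBIZ, SOCS2, SOCS4 and SOCS6. No family called IRF2BP2, NFKBIB or SOCS4, the only 3 genes without a call.

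**Figure D1:**
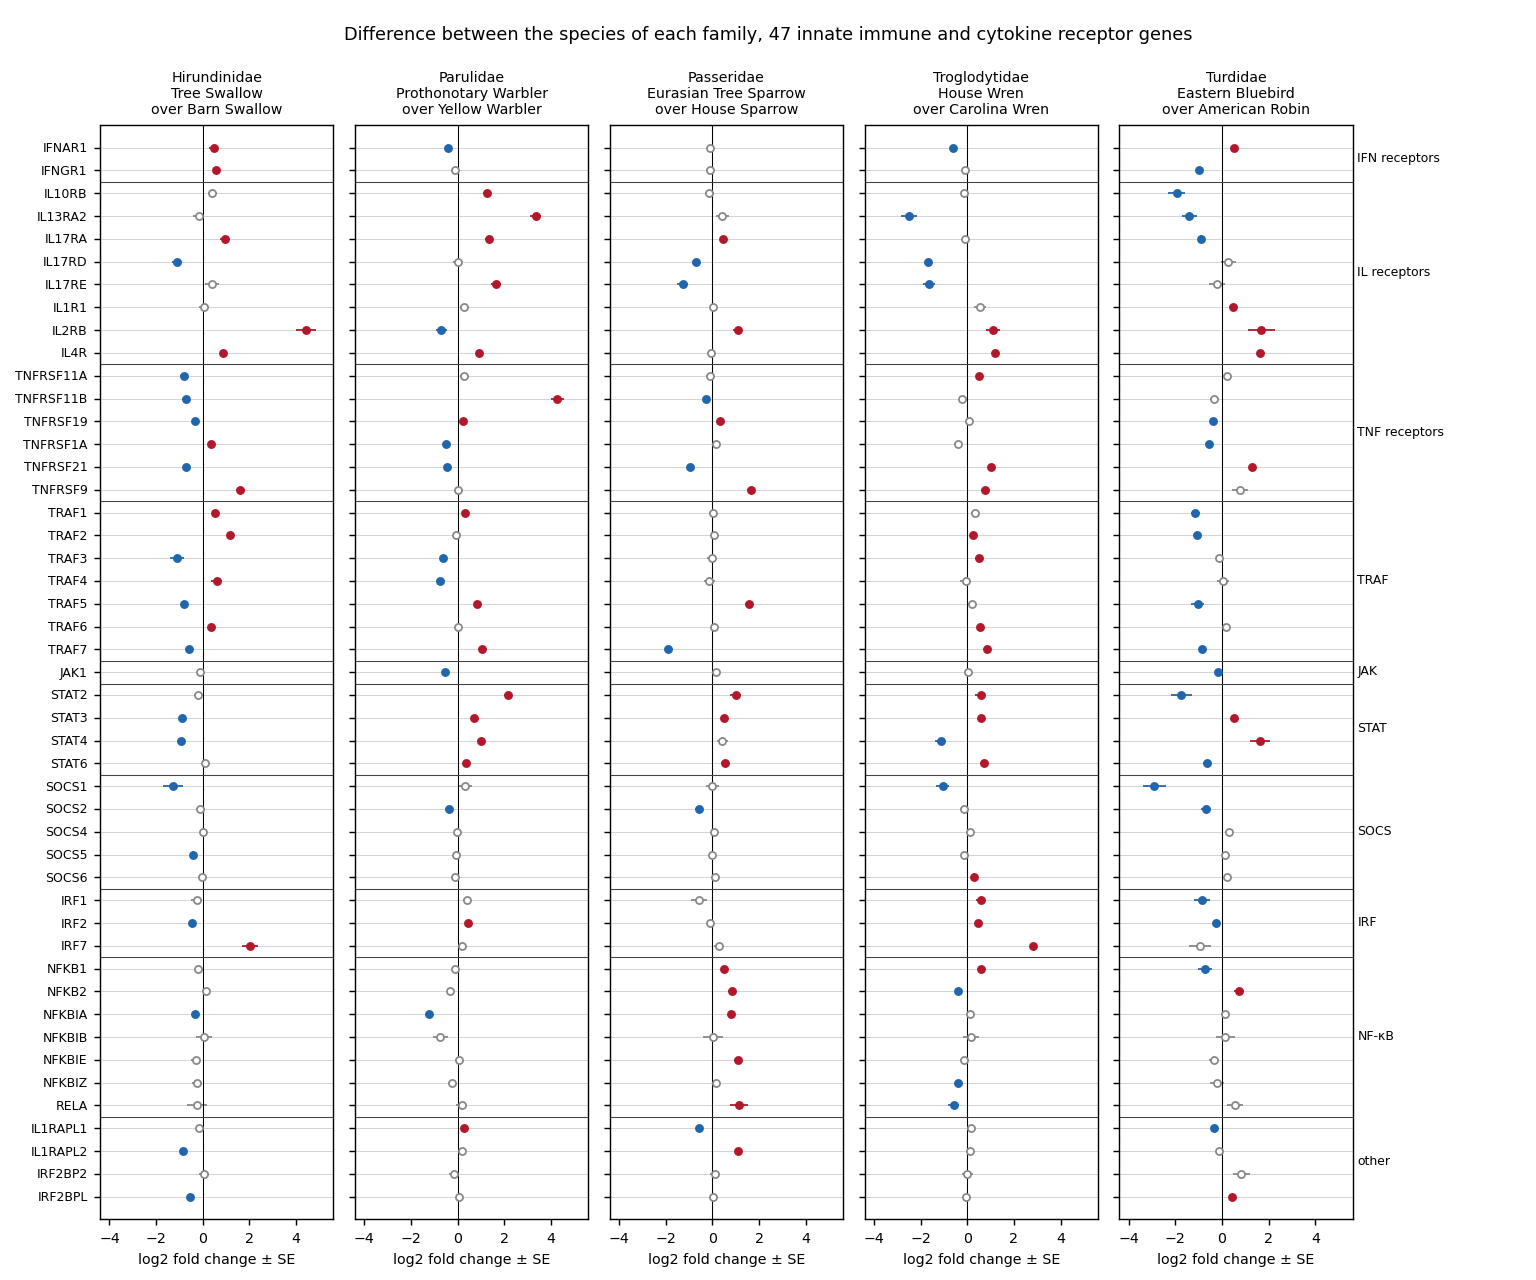
Log2 fold change of the obligate nester over its partner (x axis, with standard error) for 47 of the 49 genes (rows, grouped by role) in 5 families (panels); filled red points were called higher, filled blue points lower, and open grey points were not called at an adjusted p of 0.05 (edgeR). Most rows hold red and blue points in different families, and IL2RB in Hirundinidae and TNFRSF11B in Parulidae lie farthest from 0.

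Both interferon receptors were higher in Tree Swallows than in Barn Swallows. IFNAR1, the receptor chain for type I interferon, was higher in Tree Swallows (log2 fold change 0.46 ± 0.18, adjusted p = 0.0273) and in Eastern Bluebirds (log2 fold change 0.52 ± 0.12, adjusted p = 0.000514) and lower in Prothonotary Warblers (log2 fold change -0.40 ± 0.09, adjusted p = 0.000296) and House Wrens (log2 fold change -0.61 ± 0.10, adjusted p = 6.3e-06). IFNGR1, the receptor chain for interferon gamma, had 89.8, 116 and 127 CPM in Tree Swallows, against 38.0, 78.1 and 96.2 CPM in Barn Swallows. Among thrushes the levels were 16.0, 23.7 and 30.4 CPM in Eastern Bluebirds, against 33.8, 45.3 and 63.7 CPM in American Robins. The bluebirds all lay below the robins (log2 fold change -0.99 ± 0.12, adjusted p = 3.46e-08), whereas the swallows overlapped with the obligate species higher (log2 fold change 0.55 ± 0.10, adjusted p = 4.62e-05). In the other families IFNGR1 was not called, with log2 fold changes of -0.12 in Parulidae, -0.12 in Passeridae and -0.11 in Troglodytidae.

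Of the 8 interleukin receptors, 3 were higher and 1 lower in Tree Swallows, 5 higher and 1 lower in Prothonotary Warblers, 2 each way in Eurasian Tree Sparrows, 2 higher and 3 lower in House Wrens, and 3 higher and 3 lower in Eastern Bluebirds. Over the 5 families 25 of their 40 differences were called (62.5%), against 54.4% over all genes. IL2RB, the beta chain shared by the receptors for interleukins 2 and 15, differed in all 5 families. It had 1.94, 4.11 and 7.83 CPM in Tree Swallows, against 0, 0.157 and 0.648 CPM in Barn Swallows. No Barn Swallow reached the lowest Tree Swallow, and 5 of 12 Barn Swallows had no count (log2 fold change 4.42 ± 0.41, adjusted p = 2.64e-10). The level was also higher, at 3.31, 5.77 and 7.75 CPM in Eurasian Tree Sparrows, against 0.735, 2.59 and 4.23 CPM in House Sparrows (log2 fold change 1.08 ± 0.18, adjusted p = 1.12e-05). It was higher, at 3.36, 4.66 and 9.32 CPM in House Wrens, against 0.713, 2.18 and 5.52 CPM in Carolina Wrens (log2 fold change 1.11 ± 0.28, adjusted p = 0.00142). These ranges overlapped in both families. Only in Parulidae was it lower in the obligate nester, with 0.202, 1.59 and 2.74 CPM in Prothonotary Warblers, against 1.07, 2.72 and 3.84 CPM in Yellow Warblers (log2 fold change -0.70 ± 0.24, adjusted p = 0.0154). In Turdidae it had 0, 2.29 and 12.5 CPM in Eastern Bluebirds, against 0, 0.768 and 4.03 CPM in American Robins (log2 fold change 1.69 ± 0.56, adjusted p = 0.0122). The highest bluebird was male 12, and without the libraries that stand apart the log2 fold change was 1.15 with an adjusted p of 0.0536.

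IL4R, the chain that binds interleukin 4, separated 4 of the 5 pairs without overlap, each time with the obligate nester higher. It had 201, 251 and 283 CPM in Eastern Bluebirds, against 59.4, 78.6 and 99.4 CPM in American Robins. Among wrens the levels were 79.6, 92.5 and 119 CPM in House Wrens, against 36.3, 45.3 and 51.1 CPM in Carolina Wrens. Every bluebird and every House Wren lay above every bird of the partner species (log2 fold change 1.63 ± 0.09, adjusted p = 5.67e-15 and log2 fold change 1.18 ± 0.07, adjusted p = 3.76e-14). The same held for swallows, at 58.3, 68.1 and 89.6 CPM in Tree Swallows, against 25.6, 40.0 and 56.2 CPM in Barn Swallows (log2 fold change 0.86 ± 0.11, adjusted p = 9.63e-08). It held again for warblers, at 46.0, 58.7 and 69.0 CPM in Prothonotary Warblers, against 22.1, 28.8 and 40.1 CPM in Yellow Warblers (log2 fold change 0.93 ± 0.09, adjusted p = 3.92e-10). Only the sparrows overlapped, at 69.2, 91.0 and 144 CPM in Eurasian Tree Sparrows, against 40.4, 106 and 139.5 CPM in House Sparrows (log2 fold change -0.08 ± 0.15, adjusted p = 0.701).

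IL13RA2, known as a decoy receptor for interleukin 13, had 9.97, 15.7 and 36.3 CPM in Prothonotary Warblers, against 0.955, 1.66 and 3.33 CPM in Yellow Warblers. The lowest Prothonotary Warbler lay above the highest Yellow Warbler (log2 fold change 3.36 ± 0.23, adjusted p = 1.27e-12). House Wrens (log2 fold change -2.49 ± 0.34, adjusted p = 5.32e-07) had less than their partners, as did Eastern Bluebirds (log2 fold change -1.40 ± 0.34, adjusted p = 0.000946), and the birds of both species overlapped in each pair. IL17RE, a receptor chain of the interleukin 17 family, was likewise higher, at 3.78, 5.38 and 11.6 CPM in Prothonotary Warblers, against 0.813, 1.90 and 3.66 CPM in Yellow Warblers (log2 fold change 1.66 ± 0.21, adjusted p = 1e-07). Again the warblers did not overlap. It was lower in Eurasian Tree Sparrows (log2 fold change -1.28 ± 0.22, adjusted p = 1.6e-05) and in House Wrens (log2 fold change -1.63 ± 0.27, adjusted p = 7.28e-06). IL17RA, the chain shared by several interleukin 17 receptors, was higher in Tree Swallows, Prothonotary Warblers and Eurasian Tree Sparrows, with log2 fold changes of 0.96, 1.36 and 0.47, and lower in Eastern Bluebirds (log2 fold change -0.90 ± 0.12, adjusted p = 1.57e-07). IL17RD, which is also known to restrain fibroblast growth factor signalling, was lower in Tree Swallows, Eurasian Tree Sparrows and House Wrens, with log2 fold changes of -1.11, -0.72 and -1.67. Its levels among wrens were 2.51, 6.00 and 10.7 CPM in House Wrens, against 14.2, 21.4 and 23.9 CPM in Carolina Wrens. There was no overlap between the wrens. IL10RB, a chain of the interleukin 10 receptor, was higher in Prothonotary Warblers (log2 fold change 1.27 ± 0.16, adjusted p = 1.94e-07) and lower in Eastern Bluebirds (log2 fold change -1.94 ± 0.36, adjusted p = 4.11e-05). IL1R1, the signalling receptor of interleukin 1, was called only in Turdidae (log2 fold change 0.48 ± 0.19, adjusted p = 0.0356), where without the libraries that stand apart the log2 fold change was 0.34 with an adjusted p of 0.0756.

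**Figure D2:**
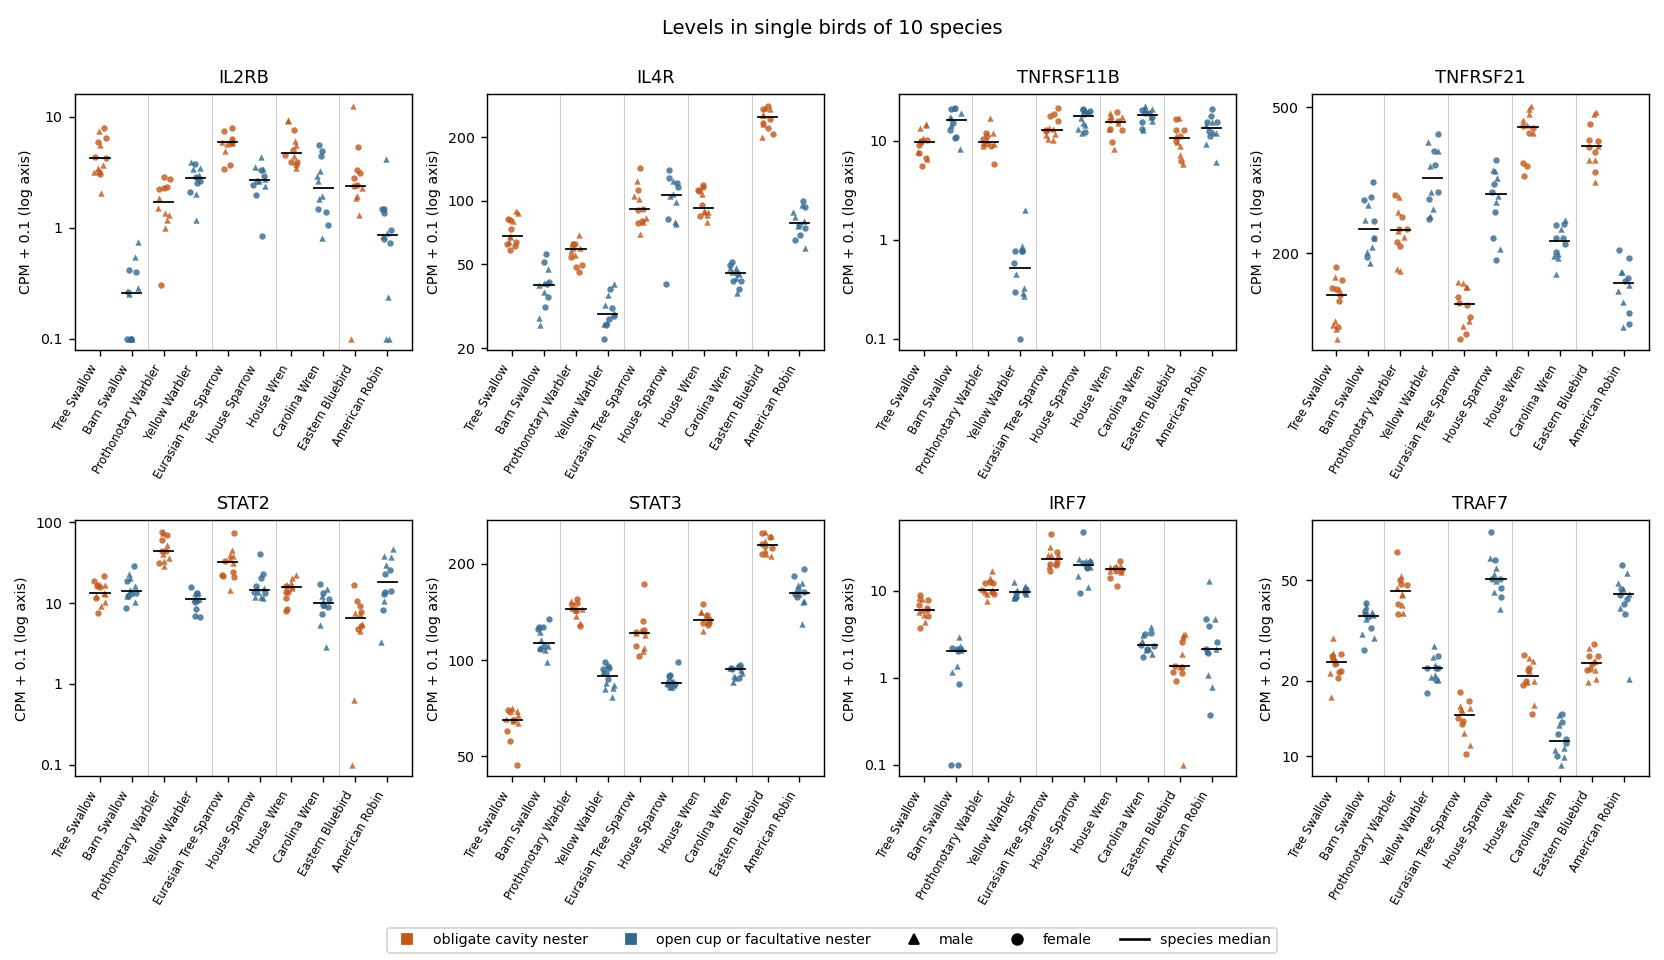
Level in each bird (CPM plus 0.1, log axis) of 8 genes in 10 species ordered by family, with obligate nesters in orange and their partners in blue, triangles for males, circles for females and a bar at the species median. IL4R is higher in the obligate nester in all pairs but the sparrows, STAT3 in all pairs but the swallows, and the lowest points are those of IL2RB in Barn Swallows (median 0.157 CPM) and TNFRSF11B in Yellow Warblers (median 0.418 CPM).

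Of the 6 TNF receptors, all were called in Hirundinidae, 2 higher and 4 lower in Tree Swallows, where 25.8% of all genes were higher and 28.5% lower. Across all families 20 of their 30 differences were called (66.7%), against 54.4% over all genes. TNFRSF11B encodes osteoprotegerin, a soluble decoy receptor. It had 5.70, 9.71 and 16.9 CPM in Prothonotary Warblers, against 0, 0.418 and 1.92 CPM in Yellow Warblers. Every Prothonotary Warbler lay above every Yellow Warbler, and the medians of the 9 species other than the Yellow Warbler lay between 9.71 and 18.3 CPM (log2 fold change 4.28 ± 0.28, adjusted p = 2.97e-13). In Tree Swallows it was lower than in Barn Swallows (log2 fold change -0.72 ± 0.17, adjusted p = 0.000736) and in Eurasian Tree Sparrows lower than in House Sparrows (log2 fold change -0.28 ± 0.11, adjusted p = 0.0439), with overlapping birds. TNFRSF21, also called death receptor 6 and known for a part in axon pruning, was called in every family with directions that split between them. It had 324, 441 and 505 CPM in House Wrens, against 175, 215 and 247 CPM in Carolina Wrens. Among thrushes the levels were 312, 391 and 484 CPM in Eastern Bluebirds, against 125, 166 and 204 CPM in American Robins. In those 2 families each obligate nester lay above each partner (log2 fold change 1.03 ± 0.08, adjusted p = 2.1e-11 and log2 fold change 1.28 ± 0.09, adjusted p = 1.18e-12). It was lower in Tree Swallows (log2 fold change -0.70 ± 0.08, adjusted p = 3.44e-08), Prothonotary Warblers (log2 fold change -0.47 ± 0.10, adjusted p = 0.000148) and Eurasian Tree Sparrows (log2 fold change -0.98 ± 0.10, adjusted p = 3.49e-09), and among swallows and sparrows the species did not overlap.

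TNFRSF9, a costimulatory receptor best known on activated T cells, had 21.1, 30.9 and 49.7 CPM in Tree Swallows, against 3.25, 10.8 and 18.4 CPM in Barn Swallows. Among sparrows the levels were 22.1, 27.6 and 42.3 CPM in Eurasian Tree Sparrows, against 3.81, 9.13 and 18.3 CPM in House Sparrows. Neither pair overlapped and the obligate nester was higher (log2 fold change 1.61 ± 0.19, adjusted p = 2.32e-08 and log2 fold change 1.66 ± 0.18, adjusted p = 2.1e-08). The House Wren was also higher than the Carolina Wren (log2 fold change 0.77 ± 0.19, adjusted p = 0.000848), whereas Prothonotary and Yellow Warblers had medians of 15.1 and 14.5 CPM and were not called. TNFRSF11A, the receptor RANK, was lower in Tree Swallows (log2 fold change -0.82 ± 0.15, adjusted p = 1.8e-05) and higher in House Wrens (log2 fold change 0.51 ± 0.15, adjusted p = 0.00523). TNFRSF1A, the main receptor for TNF, was higher in Tree Swallows (log2 fold change 0.35 ± 0.15, adjusted p = 0.0455) and lower in Prothonotary Warblers (log2 fold change -0.48 ± 0.14, adjusted p = 0.00462) and Eastern Bluebirds (log2 fold change -0.56 ± 0.19, adjusted p = 0.013). In Parulidae the log2 fold change of TNFRSF1A was -0.06 in males alone and -0.92 in females alone (edgeR, adjusted p = 0.813 and 0.000131), and the contrast between the sexes was not tested within that family. TNFRSF19, an orphan receptor of the family, was called in 4 families with log2 fold changes between -0.37 and 0.33.

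The 7 TRAF adaptors were all called in Hirundinidae, 4 higher and 3 lower in Tree Swallows, and 4 were lower and none higher in Eastern Bluebirds. Of all genes 25.8% were higher and 28.5% lower in Tree Swallows, and 28.5% and 27.7% in Eastern Bluebirds. Over the 5 families 22 of 35 differences of the adaptors were called (62.9%), against 54.4% over all genes. TRAF7, a ubiquitin ligase of the family, was called in every family. It had 10.1, 14.5 and 17.9 CPM in Eurasian Tree Sparrows, against 38.3, 50.4 and 77.9 CPM in House Sparrows. Among warblers the levels were 36.8, 45.4 and 64.9 CPM in Prothonotary Warblers, against 17.8, 22.3 and 27.3 CPM in Yellow Warblers. Among sparrows the obligate nester lay wholly below its partner (log2 fold change -1.89 ± 0.11, adjusted p = 1.89e-13) and among warblers wholly above it (log2 fold change 1.06 ± 0.09, adjusted p = 4.8e-11). The House Wren was higher than the Carolina Wren (log2 fold change 0.85 ± 0.11, adjusted p = 1.37e-07), and the Tree Swallow (log2 fold change -0.59 ± 0.09, adjusted p = 2.86e-06) and Eastern Bluebird (log2 fold change -0.88 ± 0.12, adjusted p = 4.11e-07) were lower than their partners. TRAF5 had 35.8, 49.2 and 58.4 CPM in Eurasian Tree Sparrows, against 5.39, 16.8 and 23.1 CPM in House Sparrows. No Eurasian Tree Sparrow overlapped with a House Sparrow (log2 fold change 1.55 ± 0.16, adjusted p = 5.91e-09). TRAF5 was also higher in Prothonotary Warblers, without overlap (log2 fold change 0.84 ± 0.11, adjusted p = 1.45e-07), and lower in Tree Swallows (log2 fold change -0.80 ± 0.14, adjusted p = 1.84e-05) and Eastern Bluebirds (log2 fold change -1.04 ± 0.29, adjusted p = 0.00317).

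TRAF2, an adaptor of TNF receptors, was higher, at 24.7, 27.5 and 43.2 CPM in Tree Swallows, against 3.77, 13.3 and 18.6 CPM in Barn Swallows (log2 fold change 1.18 ± 0.15, adjusted p = 1.12e-07). The swallows did not overlap. It was lower, at 5.39, 12.0 and 17.9 CPM in Eastern Bluebirds, against 16.1, 25.7 and 32.0 CPM in American Robins (log2 fold change -1.09 ± 0.16, adjusted p = 8.8e-07). TRAF1 was lower, with 2.58, 21.8 and 30.2 CPM in Eastern Bluebirds, against 36.4, 44.9 and 53.2 CPM in American Robins (log2 fold change -1.16 ± 0.19, adjusted p = 9.39e-06). No bluebird reached the lowest robin, and the lowest bluebird was male 12. TRAF6, which links the interleukin 1 receptor to NF-kB, was higher in Tree Swallows (log2 fold change 0.37 ± 0.11, adjusted p = 0.00552) and House Wrens (log2 fold change 0.54 ± 0.09, adjusted p = 9.69e-06). TRAF3, which restrains the noncanonical NF-kB pathway, varied widely within species, with 39.4, 66.7 and 258 CPM in Tree Swallows, against 85.8, 135 and 423 CPM in Barn Swallows (log2 fold change -1.10 ± 0.29, adjusted p = 0.00185). In Hirundinidae its log2 fold change was -0.51 in males alone, not called, and -1.60 in females alone. Those females included Barn Swallow females 3 and 4, which stood apart. The contrast between the sexes was not tested within that family. TRAF3 was also lower in Prothonotary Warblers (log2 fold change -0.63 ± 0.11, adjusted p = 1.95e-05) and higher in House Wrens (log2 fold change 0.52 ± 0.17, adjusted p = 0.0109). TRAF4 was higher in Tree Swallows and lower in Prothonotary Warblers, with log2 fold changes of 0.59 and -0.73.

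JAK1, the kinase used by both interferon receptors, was lower, at 75.2, 87.7 and 104 CPM in Prothonotary Warblers, against 116, 131 and 159 CPM in Yellow Warblers (log2 fold change -0.55 ± 0.06, adjusted p = 5.29e-09). Those warblers did not overlap. A lower level in Eastern Bluebirds was small (log2 fold change -0.17 ± 0.06, adjusted p = 0.0244) and without the libraries that stand apart it was -0.13 with an adjusted p of 0.0557. STAT2, STAT3, STAT4 and STAT6 were all higher in Prothonotary Warblers than in Yellow Warblers, and with library size as the only scaling STAT6 was not called there. STAT2, STAT3 and STAT6 were higher in Eurasian Tree Sparrows, and STAT3 and STAT4 were lower in Tree Swallows.

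STAT3, which carries signals of the interleukin 6 family and is known in reactive astrocytes, separated every pair without overlap. STAT3 had 212, 229 and 252 CPM in Eastern Bluebirds, against 129, 162 and 193 CPM in American Robins. It had 124, 134 and 150.0 CPM in House Wrens, against 85.6, 93.5 and 96.2 CPM in Carolina Wrens. The obligate nester was higher in Turdidae (log2 fold change 0.50 ± 0.06, adjusted p = 6.55e-08), Troglodytidae (log2 fold change 0.59 ± 0.04, adjusted p = 2.46e-12), Passeridae (log2 fold change 0.50 ± 0.07, adjusted p = 6.11e-07) and Parulidae (log2 fold change 0.72 ± 0.05, adjusted p = 8.5e-13). The swallows went the other way, with 47.0, 65.1 and 70.8 CPM in Tree Swallows, against 98.3, 113 and 135 CPM in Barn Swallows (log2 fold change -0.87 ± 0.07, adjusted p = 7.84e-12).

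STAT2, which carries type I interferon signals, had 28.3, 44.1 and 76.2 CPM in Prothonotary Warblers, against 6.65, 11.1 and 15.6 CPM in Yellow Warblers. The warblers did not overlap (log2 fold change 2.18 ± 0.18, adjusted p = 2.79e-11). STAT2 was higher in Eurasian Tree Sparrows (log2 fold change 0.99 ± 0.23, adjusted p = 0.000878) and House Wrens (log2 fold change 0.57 ± 0.22, adjusted p = 0.0293) and lower in Eastern Bluebirds (log2 fold change -1.75 ± 0.45, adjusted p = 0.0016). For House Wrens over Carolina Wrens STAT2 was 1.03 ± 0.31 in males alone and 0.11 ± 0.24 in females alone, not called in females. These fits kept Carolina Wren female 1 and male 3, which went against their sex labels, under the labelled sex. For the sparrows STAT2 was 1.36 ± 0.22 in males alone and 0.62 ± 0.35 in females alone, again not called in females. Those females included House Sparrow female 3, which stood apart. The contrast between the sexes was not tested in these 2 families. In Turdidae the log2 fold change of STAT2 was -2.72 ± 0.72 in males alone and -0.85 ± 0.32 in females alone. Those males included Eastern Bluebird male 12, which stood apart, and the fit of males was not rerun without it. The contrast between the sexes was not tested within that family. With both sexes but without the libraries that stand apart the log2 fold change of STAT2 was -1.56. STAT4, which carries interleukin 12 signals, was higher in Eastern Bluebirds (log2 fold change 1.61 ± 0.42, adjusted p = 0.00179) and Prothonotary Warblers (log2 fold change 1.00 ± 0.17, adjusted p = 1.51e-05) and lower in House Wrens (log2 fold change -1.14 ± 0.24, adjusted p = 0.00026) and Tree Swallows (log2 fold change -0.93 ± 0.17, adjusted p = 2.88e-05). STAT6, which carries the interleukin 4 signal, was higher in Prothonotary Warblers, Eurasian Tree Sparrows and House Wrens, with log2 fold changes of 0.37, 0.52 and 0.71, and lower in Eastern Bluebirds at -0.64. In Parulidae it was 0.08 in males alone and 0.64 in females alone, and the contrast between the sexes was not tested there.

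Over the 5 families the share of differences called ran between 32% for the SOCS genes (8 of 25) and 84% for the STATs, with 54.4% over all genes, and the contrasts between these shares were not tested. SOCS1, the inhibitor of interferon receptor kinases, had 0, 0.16 and 0.943 CPM in Eastern Bluebirds, against 0.592, 1.93 and 4.36 CPM in American Robins. Among the bluebirds 3 of 12 had no count (log2 fold change -2.90 ± 0.50, adjusted p = 1.34e-05). It was also lower in Tree Swallows (log2 fold change -1.28 ± 0.44, adjusted p = 0.0141) and House Wrens (log2 fold change -1.05 ± 0.28, adjusted p = 0.00208), with birds that overlapped in every pair. SOCS2, a regulator of growth hormone signalling, was lower in Prothonotary Warblers, Eurasian Tree Sparrows and Eastern Bluebirds, with log2 fold changes of -0.38, -0.57 and -0.71. It was lower on average in all 5 families, and in Parulidae its log2 fold change with DESeq2 was also -0.38, with an adjusted p of 0.0624. SOCS5 was called in Tree Swallows only (-0.40), SOCS6 in House Wrens only (0.28) and SOCS4 in no family.

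Among the 4 interferon regulatory factors, IRF7, known as the factor that amplifies type I interferon production, had 11.0, 17.4 and 21.8 CPM in House Wrens, against 1.62, 2.26 and 3.72 CPM in Carolina Wrens. Among swallows the levels were 3.65, 5.96 and 8.78 CPM in Tree Swallows, against 0, 1.94 and 2.82 CPM in Barn Swallows. Neither pair overlapped (log2 fold change 2.82 ± 0.14, adjusted p = 1.32e-15 and log2 fold change 2.04 ± 0.34, adjusted p = 7.49e-06), and 2 of 12 Barn Swallows had no count. The other families were not called, with log2 fold changes of 0.20 in Parulidae, 0.28 in Passeridae and -0.94 in Turdidae (adjusted p = 0.0926). IRF2, a constitutive factor, was higher in Prothonotary Warblers (log2 fold change 0.45 ± 0.06, adjusted p = 2.89e-07) and House Wrens (log2 fold change 0.44 ± 0.06, adjusted p = 1.43e-06) and lower in Tree Swallows (log2 fold change -0.46 ± 0.09, adjusted p = 6.13e-05) and Eastern Bluebirds (log2 fold change -0.26 ± 0.09, adjusted p = 0.015). IRF1, which interferon gamma induces, was higher in House Wrens (log2 fold change 0.57 ± 0.21, adjusted p = 0.0239) and lower in Eastern Bluebirds (log2 fold change -0.87 ± 0.33, adjusted p = 0.0269), where without American Robin male 7 its log2 fold change was -0.64 with an adjusted p of 0.0866.

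Over the 5 families 13 of 35 differences in the NF-kB group were called (37.1%), against 54.4% over all genes. In Eurasian Tree Sparrows 5 of the 7 genes were higher than in House Sparrows and none was lower. Of all genes 24.2% were higher and 24.8% lower in that pair. The 5 were the subunits NFKB1, NFKB2 and RELA and the inhibitors NFKBIA and NFKBIE. NFKBIA, the inhibitor that NF-kB itself induces, had 19.8, 21.8 and 24.0 CPM in Eurasian Tree Sparrows, against 8.82, 11.6 and 20.6 CPM in House Sparrows (log2 fold change 0.80 ± 0.11, adjusted p = 8.01e-07). NFKBIE had 7.16, 10.7 and 16.8 CPM in Eurasian Tree Sparrows, against 2.29, 4.93 and 7.15 CPM in House Sparrows, without overlap (log2 fold change 1.10 ± 0.18, adjusted p = 1.06e-05). NFKB2 (log2 fold change 0.85 ± 0.17, adjusted p = 0.000109), NFKB1 (log2 fold change 0.48 ± 0.13, adjusted p = 0.00281) and RELA (log2 fold change 1.15 ± 0.38, adjusted p = 0.0135) overlapped between the sparrows. With library size as the only scaling NFKB1 was not called there, and 4 of 7 were higher. In Prothonotary Warblers NFKBIA was the only gene of the group that was called, at 8.63, 13.2 and 20.8 CPM in Prothonotary Warblers, against 21.4, 29.4 and 51.9 CPM in Yellow Warblers. Those warblers did not overlap (log2 fold change -1.22 ± 0.13, adjusted p = 5.61e-09), and with library size alone 5 of 7 were lower in this family. NFKB1 was higher in House Wrens (log2 fold change 0.60 ± 0.11, adjusted p = 2.02e-05) and lower in Eastern Bluebirds (log2 fold change -0.72 ± 0.30, adjusted p = 0.0444), and without American Robin male 7 the log2 fold change in Turdidae was -0.71 with an adjusted p of 0.0573. In Turdidae NFKB1 was -1.14 in males alone and -0.33 in females alone, called in neither (edgeR, adjusted p = 0.138 and 0.179). Those males included Eastern Bluebird male 12, which had no count for NFKB1, and the fit of males was not rerun without it. The contrast between the sexes was not tested within that family. Without the libraries that stand apart NFKB1 was -0.57 ± 0.18 in Turdidae, with an adjusted p of 0.00825. RELA was lower in House Wrens (log2 fold change -0.58 ± 0.23, adjusted p = 0.0295), where NFKB2 and NFKBIZ were lower as well, at -0.38 and -0.39, and without the libraries that stand apart the log2 fold change of NFKBIZ was -0.35 with an adjusted p of 0.0589.

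IL1RAPL2, taken by symbol alone, was higher in Eurasian Tree Sparrows than in House Sparrows (log2 fold change 1.11 ± 0.12, adjusted p = 8.73e-09) and lower in Tree Swallows than in Barn Swallows (log2 fold change -0.85 ± 0.09, adjusted p = 6.12e-09). It was also the only one of the 49 genes whose sex difference depended on family (edgeR, sex by family interaction over all birds, adjusted p = 5.76e-09), a test chosen after its values had been seen, in which 0.686% of all genes were called and 3 of the 49 had an unadjusted p under 0.05. Tree Swallow males had 23.3, 31.2 and 37.4 CPM, against 13.1, 13.9 and 19.7 CPM in Tree Swallow females. Barn Swallow males had 44.8, 49.3 and 60.3 CPM, against 23.9, 26.1 and 36.4 CPM in Barn Swallow females. Males lay above females without overlap in both swallows, and the log2 difference of male over female in Hirundinidae was 0.98 ± 0.09 (SE, adjusted p = 7.78e-09). It was 1.06 in Tree Swallows alone and 0.88 in Barn Swallows alone, and 1.02 without the libraries that stand apart. In the other families the difference was 0.10 in Parulidae, -0.04 in Passeridae, -0.16 in Troglodytidae and -0.06 in Turdidae, and the gene was not called. IL1RAPL2 was the single member of the 49 called by sex within any family, with 3, 3, 1, 2 and 2 members at an unadjusted p under 0.05 in the 5 families, where the share of all genes called was 3.85% in Hirundinidae, 3.76% in Parulidae, 3.8% in Passeridae, 3% in Troglodytidae and 2.96% in Turdidae. IL1RAPL1 was higher in Prothonotary Warblers (0.28) and lower in Eurasian Tree Sparrows (-0.58) and Eastern Bluebirds (-0.34), where without the libraries that stand apart it was -0.31 with an adjusted p (edgeR) of 0.0597. IRF2BPL was lower in Tree Swallows (-0.54) and higher in Eastern Bluebirds (0.43).

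**Figure D3:**
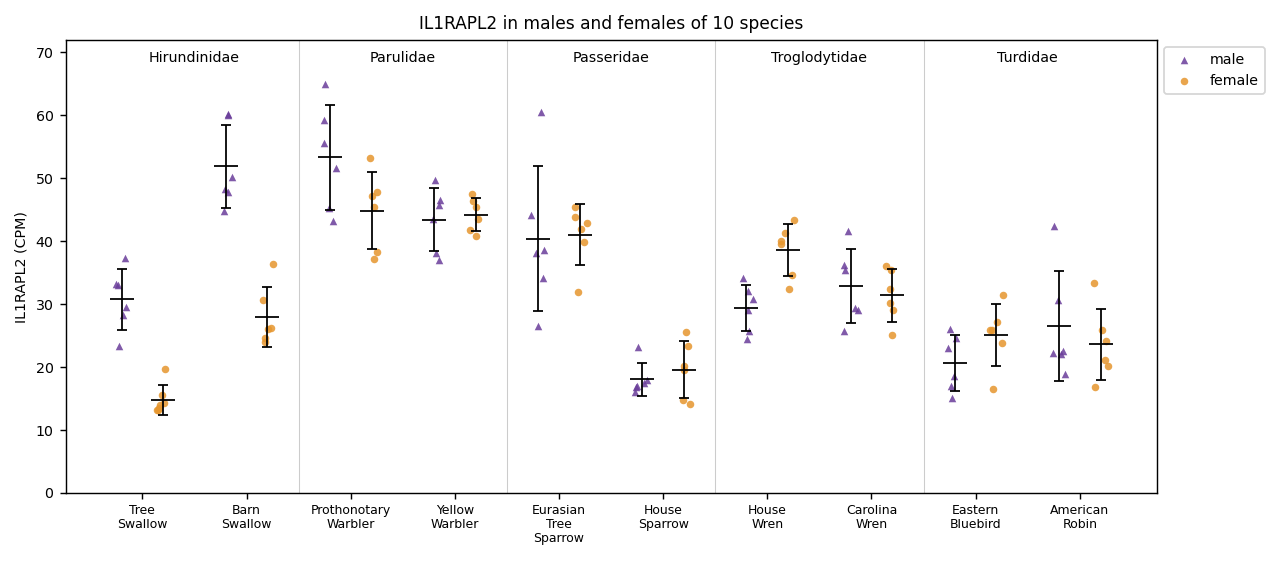
IL1RAPL2 level (CPM) in each male (triangles) and female (circles) of 10 species, with the mean and SD of each group of 6 or 7 birds. Males lie wholly above females in Tree Swallows and Barn Swallows, and the sexes overlap in each of the other 8 species.

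In a fit of all birds that held species fixed, no member was called by sex, with 5 at an unadjusted p under 0.05 and none called by DESeq2, while 4.15% of all genes were higher and 1.06% lower in males and 10.6% had an unadjusted p under 0.05. The smallest p-values belonged to IL1RAPL2 (log2 difference 0.17 ± 0.06 SE, adjusted p = 0.143), STAT3 (-0.06 ± 0.02, adjusted p = 0.152) and SOCS1 (-0.35 ± 0.16, adjusted p = 0.334). STAT3 and SOCS1 were lower on average in males in 9 of 10 species each. Leaving out Passeridae, Troglodytidae or Turdidae in turn brought IL1RAPL2 past the threshold, with log2 differences of 0.22, 0.25 and 0.22. The difference between the sexes did not depend detectably on nesting habit for any of the 49 by edgeR or DESeq2, with 3 at an unadjusted p under 0.05, against 0.0563% of all genes called and 6.39% at an unadjusted p under 0.05. Those 3 were NFKBIA (male over female, obligate minus partner, 0.33 ± 0.11), STAT3 (0.10 ± 0.04) and TRAF1 (-0.30 ± 0.14), with adjusted p-values of 0.673, 0.777 and 0.777.

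Nesting habit was then tested with species as the units, using limma with 1 mean of log2 CPM for each of the 10 species and family as a block. None of the 49 was called, none of 10648 genes was called (0%), and 4 of the 49 had an unadjusted p under 0.05, against 4.47% of all genes. Among them were IL4R (log2 difference of obligate over partner 0.91 ± 0.25, SE), TNFRSF9 (0.91 ± 0.29) and IL2RB (1.20 ± 0.49). Their adjusted p was 0.951 in the limma fit, as it was for IL17RD (-0.69 ± 0.29) and SOCS2 (-0.39 ± 0.18), which came next. In 4 of 5 families the obligate nester had the higher mean of IL4R, TNFRSF9 and IL2RB, and in 5 of 5 it had the lower mean of SOCS2. With 5 pairs of species the test had little power, and a p that misses the threshold does not show that the nesters are alike.

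The same species means were compared between families. There 5 of the 49 were called on species means (limma F test), against 4.09% of all genes, and 11 of the 49 had an unadjusted p under 0.05, against 28.4% of all genes. The 5 called were IL1R1 (adjusted p = 0.0198), NFKBIB (0.0288), IFNGR1 (0.0371), IRF2BP2 (0.0425) and TNFRSF11A (0.0473). In wrens IL1R1 averaged 2.82 ± 1.35 CPM (House Wren) and 1.93 ± 0.756 CPM (Carolina Wren, SD, 12 birds each), against 8.08 to 15.4 CPM in the means of the 8 other species. NFKBIB was the reverse, at 8.16 ± 3.32 CPM for the House Wren and 7.37 ± 4.33 CPM for the Carolina Wren, against 1.16 to 3.55 CPM elsewhere. IFNGR1 averaged 112 ± 10.5 CPM for the Tree Swallow and 75.6 ± 17.3 CPM for the Barn Swallow, 12.4 ± 2.56 CPM for the Eurasian Tree Sparrow and 13.5 ± 3.80 CPM for the House Sparrow, with the other 3 families between 23.6 and 47.1 CPM. Wrens were thus low in IL1R1 and high in NFKBIB, and swallows high and sparrows low in IFNGR1. TNFRSF11A was highest in Eastern Bluebirds (15.6 ± 4.00 CPM) and Barn Swallows (15.4 ± 4.03 CPM). IRF2BP2 was low in swallows and thrushes, between 4.37 and 7.84 CPM, and between 13.7 and 15.6 CPM in the other 3 families. Fewer genes were called whenever a family was left out, which also left fewer species in the fit. IRF2BP2 and TNFRSF11A were called in none of those fits. Without Troglodytidae none of the 49 was called, without Hirundinidae or Passeridae IL1R1 alone, without Parulidae IL1R1 and NFKBIB, and without Turdidae IL1R1, NFKBIB and IFNGR1.

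Shares of the variance of log2 CPM over all birds put the same pattern on 1 scale, with no test. The median gene of the 49 had 41.5% of its variance between families, 24.6% between the species of a family, 0.206% between sexes and 32.5% between birds of 1 species and sex. Over all genes the medians were 40.5%, 21.3%, 0.126% and 28.8%. The family share was largest for IFNGR1 (85.1%), JAK1 (81.7%), IL1R1 (77.9%) and TNFRSF11A (75.7%). It was smallest for TRAF4 (11.7%), IRF1 (12.1%), NFKBIZ (13.3%) and SOCS5 (15.4%), which varied mostly within a species and sex, by 74.3%, 77.3%, 75.7% and 68.9% of their variance. The first principal component of all genes within species and sex held 19.7% of that variation between birds, and it took up 65.9% of it for TRAF4 and 32.3% for SOCS5, 2.12% for NFKBIZ and close to 0% for IRF1, where the median over all genes was 11.4%. TRAF7 had 61.6% of its variance between the species of a family and 9.95% between birds.

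**Figure D4:**
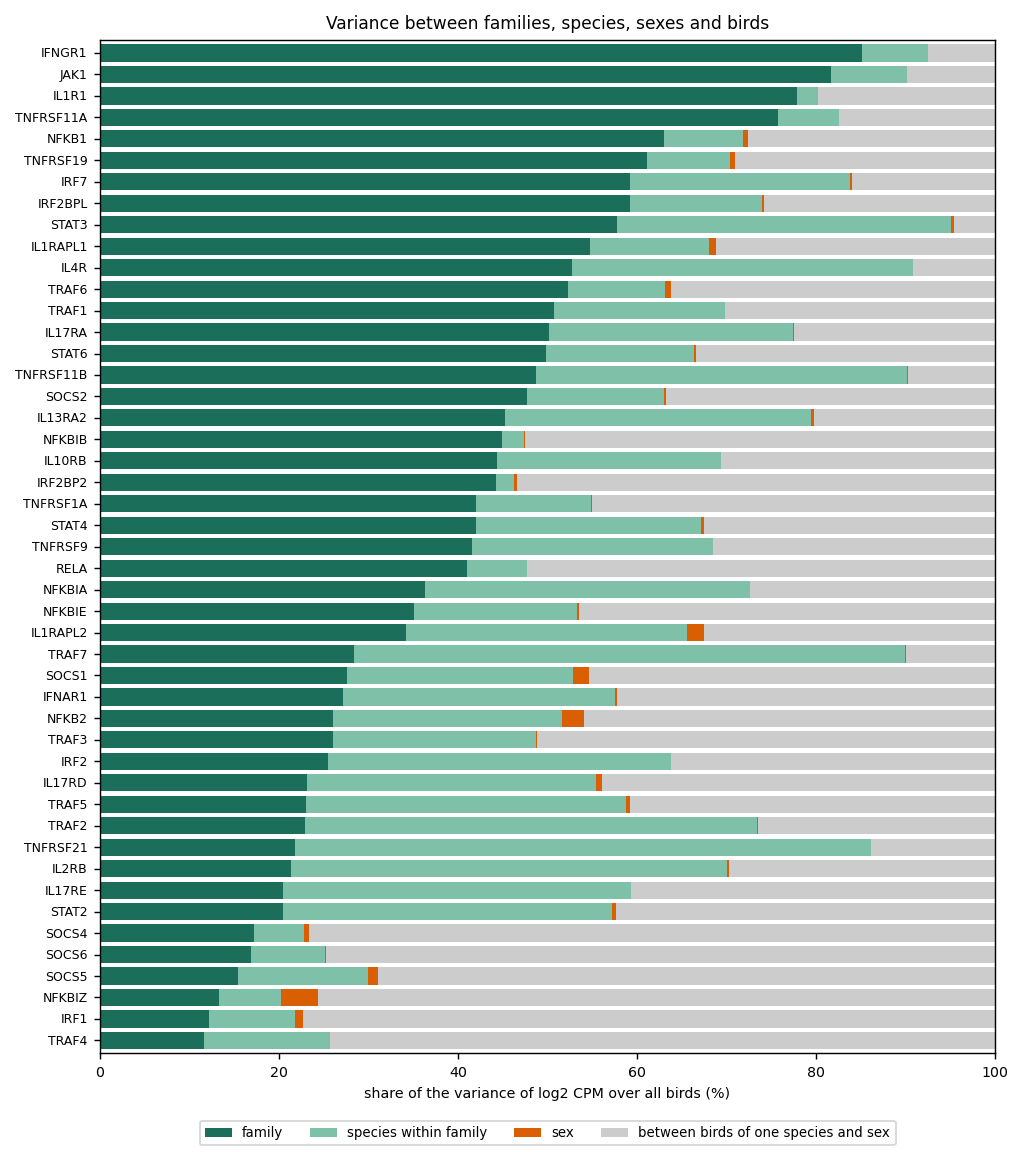
Share of the variance of log2 CPM over all birds (x axis, percent) that lay between families, between species of a family, between sexes and between birds of 1 species and sex, for 47 of the 49 genes ordered by the family share. IFNGR1 has 85.1% between families and TRAF4 11.7%, and the share between sexes is narrow in every row.

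Other genes of the same pathways were counted from lists chosen beside the members. Of all genes 25.8% were higher and 28.5% lower in Hirundinidae, and 28.1% and 27.3% in Parulidae. The shares were 24.2% and 24.8% in Passeridae, 30.7% and 26.2% in Troglodytidae, and 28.5% and 27.7% in Turdidae. No list was tested against these shares. In Prothonotary Warblers, 6 of 7 interferon-stimulated genes measured were higher and none lower than in Yellow Warblers, with a median log2 fold change of 1.00, beside the higher STAT2, STAT3, STAT4 and STAT6. The largest were IFI6, an interferon-induced mitochondrial protein (3.11), TRIM14, an adaptor of antiviral signalling (1.67), and B2M, the light chain of class I MHC (1.00). HERC4 (1.00) is on that list but is not well known as an interferon target. In the same warblers 6 of 7 cytosolic sensors and their adaptors were higher, among them the RNA sensor DHX58 (1.39) and the DNA sensing adaptor STING1 (1.07), and NOD1, a sensor of bacterial cell walls, was lower (-5.04). With library size as the only scaling 4 of 7 were higher in each of these lists. In Tree Swallows 1 interferon-stimulated gene was higher and 4 lower, with B2M at -1.65 and TRIM14 at -1.63. In House Wrens 4 of 7 sensors and 3 of 6 interferon-stimulated genes were higher, and PARP9 was lower (-3.80). Eastern Bluebirds had 3 of 7 interferon-stimulated genes lower and 2 higher. In Eurasian Tree Sparrows 2 of 7 were higher and 1 lower, and with library size alone none was higher and 3 lower. Of the 7 sensors, 2 were higher and 1 lower in Tree Swallows, 1 and 0 in Eurasian Tree Sparrows and 2 and 2 in Eastern Bluebirds. All 23 adaptors and kinases measured were tested in Passeridae and Turdidae, and 22 in each other family. Of those tested, 8 were higher and 1 lower in Tree Swallows, 5 and 6 in Prothonotary Warblers, 8 and 9 in Eurasian Tree Sparrows, 7 and 8 in House Wrens, with Eastern Bluebirds at 10 and 7. Of the 12 cytokines measured, 11 were tested in every family. Among these 11, 1 was higher and 5 lower in Tree Swallows, 3 and 2 in Prothonotary Warblers, 4 and 0 in Eurasian Tree Sparrows, 5 and 3 in House Wrens, with Eastern Bluebirds at 4 and 1.

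Markers of cell types were measured beside these genes, and their part in the results was not tested. Their counts stand beside the share of all genes called, 54.4% over the 5 families, with the shares by family given above. A summed level adds CPM over genes and is weighted to the markers with the most counts. It can therefore go against the number of markers called. In Turdidae, where 21 of the 49 genes were lower, 7 of 9 microglia markers were lower and 2 higher in Eastern Bluebirds, with a median log2 fold change of -0.99. Their summed level was 147, 270.1 and 448 CPM in Eastern Bluebirds, against 307, 372 and 589 CPM in American Robins, and the ranges overlapped. Among the 7 lower were CSF1R (-0.89), C1QB (-1.16), TREM2 (-1.94) and SPI1 (-0.99), while the other 2 of the 9 went the other way. The 8 markers of blood cells were all lower there too, with a summed level of 298, 612 and 1587 CPM, against 427, 1665 and 8980 CPM in American Robins. In Parulidae, where these STATs and interferon-stimulated genes were higher, 1 microglia marker was higher and 2 lower, and the summed level was 141, 176 and 214 CPM in Prothonotary Warblers, against 129, 163 and 253 CPM in Yellow Warblers. In Passeridae 2 of 9 microglia markers were higher and none lower, with sums of 167, 225 and 794 CPM in Eurasian Tree Sparrows, against 98.1, 224 and 776 CPM in House Sparrows. In Hirundinidae 1 was higher and 1 lower, and 6 of 8 blood cell markers were lower in Tree Swallows, with sums of 368, 982 and 1910 CPM in Tree Swallows, against 534, 1056 and 1811 CPM in Barn Swallows. In Troglodytidae 1 microglia marker was lower and none higher. All 5 markers of excitatory neurons were called there, 2 higher and 3 lower, and their summed level was 588, 703 and 969 CPM in House Wrens, against 1509, 1981 and 2604 CPM in Carolina Wrens, without overlap. Of 3 oligodendrocyte markers 2 were lower in House Wrens and none higher. Eurasian Tree Sparrows had 3 of 7 astrocyte markers higher and 1 lower, with a median log2 fold change of 0.23. The summed level of these markers was nevertheless wholly lower, at 2665, 2986 and 3319.8 CPM in Eurasian Tree Sparrows, against 3561, 4395 and 5725 CPM in House Sparrows. In Turdidae 3 astrocyte markers were higher and 3 lower, and the sum was wholly higher, at 2852, 3669 and 4433 CPM in Eastern Bluebirds, against 1725, 1957 and 2225 CPM in American Robins. Of 12 endothelial and mural cell markers, 5 were higher and none lower in Eurasian Tree Sparrows, and in Prothonotary Warblers 2 were higher and 3 lower. Their sum in the warblers was 328, 371 and 427.6 CPM in Prothonotary Warblers, against 428.5, 501 and 616 CPM in Yellow Warblers, without overlap. Of 5 markers of choroid plexus and ependyma, 1 was lower in Tree Swallows and 2 in Prothonotary Warblers, with none higher. In Eurasian Tree Sparrows 1 was higher and 1 lower, in Eastern Bluebirds 1 was higher, and in House Wrens none was called. The sum of these 5 was 50.2, 240 and 3855 CPM in Tree Swallows, against 51.4, 1022 and 11008 CPM in Barn Swallows. Among thrushes it was 48.3, 2410 and 9491 CPM in Eastern Bluebirds, against 23.6, 4776 and 7563 CPM in American Robins. The markers of excitatory neurons (5 genes), inhibitory neurons (6 genes), astrocytes (7 genes) and oligodendrocytes (3 genes) all passed the filter on low counts in every family, as did 8 or 9 of the 9 microglia markers. Markers of lymphocytes, heterophils and thrombocytes are not analysed here.

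Birds of 1 species and sex also differed from each other, and here the members were compared on log2 CPM after removing the mean of each species and sex. IRF1 was positively correlated with NFKB1 over all birds (Pearson's r = 0.397, permutation p = 0.00040, Spearman's rho = 0.342, permutation p = 0.00049), with r = 0.399 after leaving out the 2 birds farthest from the median of IRF1. Its correlation with IRF7 had r = 0.390 (permutation p = 0.00239) and rho = 0.163 (p = 0.114), with r = 0.320 after leaving out those 2 birds. Without American Robin male 7, House Sparrow female 2 and Eurasian Tree Sparrow female 4 r was 0.269 for IRF7. Adjusted over all genes, none of the 48 other members passed for IRF1, with adjusted p-values of 0.0687 for NFKB1 and 0.172 for IRF7, while 0.404% of all genes were positively and 0.0188% negatively called. With NFKB1 as the starting gene 2 of 48 members passed, both positive, against 0.808% of all genes positive and 0.282% negative. They were IRF1 (adjusted p = 0.0443) and TRAF5 (r = 0.773, permutation p = 0.00040, adjusted p = 0.0443, rho = 0.211, p = 0.0415). For TRAF5 r was 0.456 without Eastern Bluebird males 9 and 12, the birds farthest from the median of NFKB1, and male 12 had no count for either gene. For IRF1 it was 0.309 without them. Correlations were taken with these 2 starting genes only, 96 relations in all.

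In 3 birds, singled out after their values were seen, IRF1 and IRF7 were each the highest of the species and sex. Every group has a highest bird for each gene, and how often the same bird was highest for both is not given here. House Sparrow female 2 had 70.0 CPM of IRF1, against 6.91, 8.41 and 16.9 CPM in the other 5 females. It had 47.2 CPM of IRF7, against 9.31, 18.6 and 21.2 CPM. Eurasian Tree Sparrow female 4 had 29.2 CPM of IRF1 and 44.2 CPM of IRF7, against medians of 7.75 and 20.3 CPM in the other 5 females. American Robin male 7 had 27.1 CPM of IRF1 and 12.9 CPM of IRF7, against medians of 7.53 and 1.92 CPM in the other 5 males. Of 7 interferon-stimulated genes, 4 were highest of the group in House Sparrow female 2, 6 in Eurasian Tree Sparrow female 4 and 2 in American Robin male 7, where those were B2M and HERC4. Of all genes tested, 22.3%, 21.5% and 19.9% were highest of the group in these birds, in the same order. IFI6 was 141 CPM in House Sparrow female 2, against a highest value of 9.36 CPM in the other females, and 415 CPM in Eurasian Tree Sparrow female 4, against 107.8 CPM. In American Robin male 7 it was 138 CPM and ranked second, the highest other male having 207 CPM. SOCS1 was highest of the group in both sparrows, at 8.01 and 7.01 CPM, and was second highest in the robin at 2.36 CPM.

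CD74 and C1QB, 2 of the 9 microglia markers measured, lay above the other females in the sparrows and within the range of the other males in the robin. The remaining microglia markers are not given for these birds, so no statement is made about the list as a whole. The part of CD74 and C1QB in the values was not tested. CD74, the invariant chain of class II MHC, was 497 CPM in House Sparrow female 2, against 28.6, 52.5 and 90.6 CPM in the other females. It was 437 CPM in Eurasian Tree Sparrow female 4, against 34.2, 71.8 and 126.5 CPM. In American Robin male 7 it was 135 CPM, against 116, 148 and 176.5 CPM in the other males. C1QB was 68.4 and 74.2 CPM in the sparrows, against highest values of 20.4 and 23.3 CPM in the other females, and 6.45 CPM in the robin, among other males at 1.71 to 10.04 CPM. B2M was highest of the group in all 3 birds, and in the robin it was 207.7 CPM, against 52.3, 153 and 159.6 CPM in the other males. Among the 49 genes, 24 were highest of the group in House Sparrow female 2, 23 in Eurasian Tree Sparrow female 4 and 12 in American Robin male 7, IRF1 and IRF7 included, for which the birds were chosen. Over all genes tested the shares were 22.3%, 21.5% and 19.9%, in groups of 6 birds. Without these birds 23 genes were called in Passeridae, as with them, and 28 in Turdidae, against 30 with them.

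**Figure D5:**
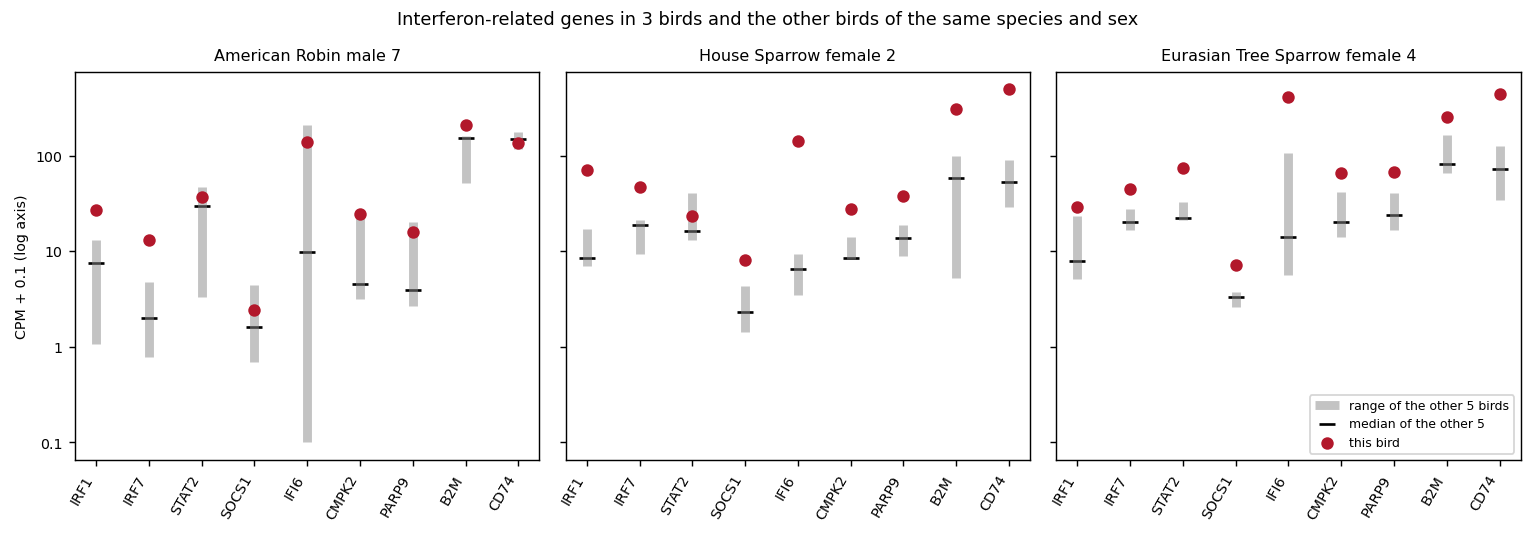
Level (CPM plus 0.1, log axis) of 9 genes in 3 birds (red points), with the range (grey bar) and median (black tick) of the other 5 birds of the same species and sex. IRF1, IRF7 and B2M lie above the grey bar in all 3 birds, SOCS1, IFI6, CMPK2, PARP9 and CD74 only in the 2 sparrows.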

How the data were processed

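The deposited table holds raw read counts per gene for each bird. Per the submitters' processing notes, the tools named were featureCounts (Subread 2.02z), Bowtie2 2.4.4, Trimmomatic 0.36, fastp 0.20.1 and SAMtools 1.10. The libraries were stranded mRNA libraries, per the labels' protocols. The deposited counts are labelled as zebra finch protein counts. Beyond that label, the genome and gene models behind them were not given in the sources used here. Totals ran from 4526413 to 7549296 counts per bird. The p-values of edgeR and DESeq2 rest on the spread between birds. Those of limma rest on the spread between species means, and those of the correlations on permutations of birds.

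Obligate nester and partner were compared within each family with edgeR 4.0.16 (R 4.3.3, TMM scaling, filterByExpr by species and sex, quasi-likelihood test with sex as a covariate, Benjamini-Hochberg adjustment over all genes, threshold 0.05). Sex, sex by nesting and obligate by family effects were fitted with edgeR over all birds. Nesting habit and family were tested with limma 3.58.1 on species means of log2 CPM (prior count 2). Correlations used 100000 permutations within species and sex (Python 3.11.15, numpy 2.4.6), and figures matplotlib 3.10.9. DESeq2 1.42.0, library size scaling, no filter, single sexes, a block on bird numbers and left-out families and libraries were alternatives. Test scripts were tested on simulated data.

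The members and lists were chosen with earlier results of these data known. Members named with full values were the 4 highest and 4 lowest called in each family with a mean of at least 1 CPM, those called in all 5 families, the 3 smallest p-values by nesting direction, sex and sex by nesting, the 4 largest and 4 smallest family shares and a list of pathway genes; the others are given more briefly. The pathway lists were interferon-stimulated genes, cytosolic sensors, adaptors and kinases, and cytokines. The cell type lists were markers of microglia, blood cells, endothelial and mural cells, astrocytes, oligodendrocytes, neurons, and choroid plexus and ependyma. The 3 birds high in IRF1 and IRF7 and the sex by family test were chosen after seeing the data. The values of 2 of the 49 genes are counted but not reported here by name.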

Additional observations from a re-analysis of the deposited data

Results flagged for a closer look

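Among 47 members looked at for a family apart from the other 4, 4 had one by the gap to the nearest family, against 8.07% of all genes. STAT3 had a log2 difference of species means of -0.86 in Hirundinidae, against 0.49 to 0.70 in the other families. TNFRSF11B had 3.75 in Parulidae, against -0.69 to -0.27 elsewhere. NFKBIE had 1.09 in Passeridae, against -0.34 to -0.01 elsewhere. TRAF1 had -1.30 in Turdidae, against 0.09 to 0.60 elsewhere.

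IRF1 and IRF7 were each looked at in the 20 groups of 1 species and sex, 40 sets of values in all, and 5 sets had a bird apart from the others, with House Sparrow female 2 in 2 of them. The cut used is meant to flag about 1 in 20 sets of normally distributed values, and its rate over all genes was not measured. House Sparrow female 2 and American Robin male 7 had already been singled out for these genes. No conclusion about chance is drawn from the number of flags. IRF1 was 70.0 CPM in House Sparrow female 2, against 6.91 to 16.9 CPM in the other females, and 11.9 CPM in Yellow Warbler female 4, against 4.50 to 6.36 CPM. IRF7 was 47.2 CPM in House Sparrow female 2, against 9.31 to 21.2 CPM. It was 12.9 CPM in American Robin male 7, against 0.684 to 4.62 CPM, and 2.45 CPM in Eastern Bluebird female 16, against 0.824 to 1.27 CPM.

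The difference between obligate nester and partner depended on family for 42 of the 49 genes by the edgeR interaction. IL1RAPL2 was 0.98 higher (log2) in males than in females of Hirundinidae, and that difference depended on family by the edgeR interaction of sex and family (adjusted p = 5.76e-09).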

How the results depend on the processing

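The 136 called differences between obligate nester and partner were recomputed under the alternatives that could be run. Genes that failed the filter on low counts in a fit had no value there. Among these were IL13RA2 in Troglodytidae and SOCS1 in Turdidae, in males alone and in females alone. The fits gave 937 values, of which 823 kept their direction and call, 114 kept their direction without passing the threshold and 0 reversed. Single sexes, with fewer birds, took most of these, 44 in males only and 30 in females only. In males only 15 members were called in Troglodytidae, against 26 with both sexes, and 13 in Turdidae, against 30. The single-sex fits took sex from the labels and kept the libraries that stand apart. For bird numbers shared by the species of a family, the correlations of the birds' deviations lay between -0.55 and 0.399. Whether these numbers pair the birds was not tested. With the number as a replicate block, 26, 21, 19 and 22 members were called in Hirundinidae, Parulidae, Passeridae and Troglodytidae, against 30, 27, 23 and 26, and 21 of the calls made without it did not pass. Turdidae shared only 2 numbers and no such fit was made. Between families, leaving out each family in turn gave 0 to 3 members, against 5. By sex it gave 0 to 1, with IL1RAPL2 called without Passeridae, Troglodytidae or Turdidae. The cause of these changes was not tested. Nesting habit gave 0 members under every alternative run. Genes with a few counts per bird, such as SOCS1 in Turdidae and IL2RB in Barn Swallows, carry the widest counting error.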
